A study of Mus musculus with 8 samples.

Results

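The collagen uptake receptor Mrc2, 8 lysosomal cathepsins and the legumain gene Lgmn were compared in whole mammary tumors with and without targeting of Mmp14. The members were the genes Mrc2, Ctsk, Ctsl, Ctsb, Ctss, Ctsh, Ctsc, Ctsz, Lgmn and Ctsd, chosen by name as the Mrc2 uptake route with the cysteine and aspartic cathepsins, and they are 10 of the 22180 genes that the array measured by a row with 1 gene symbol. All 10 were measured, each by 1 row. The conditional knockout (cKO) group held 4 mammary tumors of MMTV-PyMT mice that were MMTV-Cre+ and Mmp14(f/f), and the WT group held 4 tumors of MMTV-PyMT mice that were Mmp14(f/f) with no Cre named, called wild-type in the labels. The labels call the samples of a group biological replicates and do not say which came from 1 mouse. All mice were congenic FVB/NJ and 3 to 4 months old, so both groups share the oncogene, the floxed alleles and the strain, and differ in the Cre transgene together with the targeted gene. The MMTV promoter that drives both transgenes is known to be active mainly in mammary epithelium, and the whole tumors also hold stromal cells. Each tumor gave 1 Affymetrix array, and every value below is a log2 signal, so that a difference of 1 is a doubling of signal. The number of arrays limits the precision.

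Collagen is broken down outside and inside cells. At the cell surface, membrane and secreted metalloproteinases such as the product of Mmp14 cleave intact fibrils. Inside the cell, fragments bound by the receptor Mrc2 (also called uPARAP or Endo180), which is known mainly from fibroblasts and other mesenchymal cells, are taken up through clathrin-coated pits and digested in lysosomes. The lysosomal work is done by cathepsins, most of them papain-like cysteine proteases, which are abundant in macrophages and also made by epithelium.

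The targeted gene was read first. Mmp14, the membrane-anchored collagenase, had 7.98, 7.74, 7.44 and 7.72 in the cKO tumors, against 8.86, 9.12, 9.31 and 9.17 in the WT tumors. All 4 cKO tumors lay below all 4 WT tumors, and Mmp14 fell in cKO tumors (difference −1.40, SE 0.13, adjusted p 0.0444 from limma over 23521 rows). With arrays 1 to 4 and arrays 5 to 8 as a block the limma adjusted p was 0.0708, and it passed in 2 of the 8 fits that left out a tumor. Where the probes lie relative to the floxed part is not known here. The luminal markers Krt8, Krt18 and Epcam, which define mammary epithelium, stood at means of 10.23, 10.25 and 10.52 in cKO tumors and 10.38, 10.49 and 10.58 in WT tumors. The 8 array medians lay between 3.64 and 3.71, and the r of array pairs, taken over rows, lay between 0.976 and 0.989.

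None of the 10 members passed the threshold of an adjusted p of 0.05 in limma's fit, where 0.00850% of all rows did (0.00425% higher and 0.00425% lower in cKO tumors). At an unadjusted p below 0.05 there were 2 members, 1 lower (Ctsl) and 1 higher (Ctsz) in cKO tumors, against 9.68% of all rows (5.54% higher and 4.14% lower). There were 0 such members without cKO 3 or without WT 4, and 1 without cKO 4, WT 1, WT 2 or WT 3. The signals of no member separated the groups, where those of 5.42% of all rows did. Of the 10 members 6 were lower and 4 higher in cKO tumors. The share of all genes below 0 was 43.3%. The median of the 10 differences was −0.11, beside a median of 0.02 over all 22180 genes. Without cKO 3 the median of the members was 0.01 and 5 of them were below 0, and without cKO 4 the median was −0.06. Members differ in length, probes and brightness, so only differences between groups, and not signals of different genes, are set side by side.

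**Figure D1:**
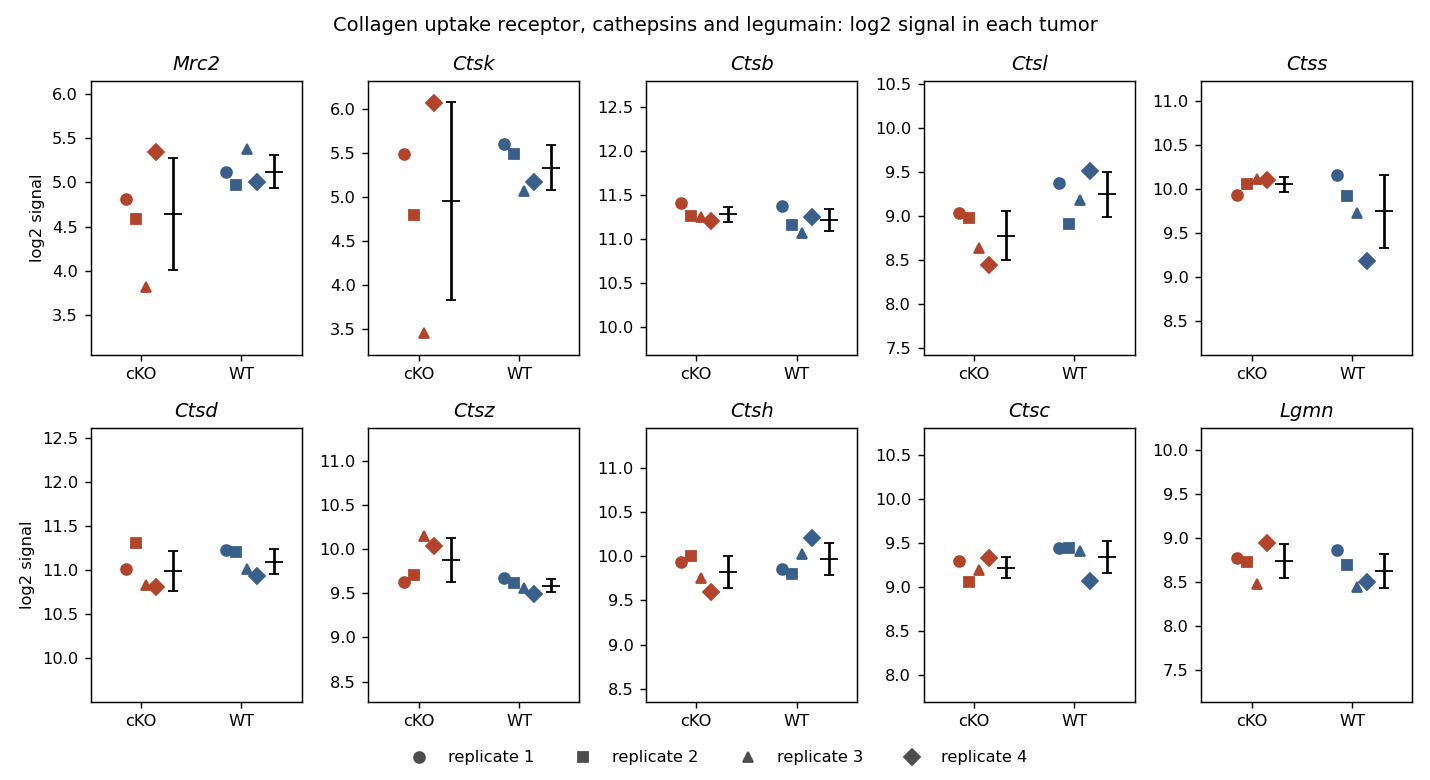
Log2 signal of the 10 members in each tumor (vertical axis, spanning the same log2 range in every panel), cKO left and WT right. Symbols mark the replicate, and the black bar gives the mean and SD of 4 tumors. Mrc2 and Ctsk spread widely among cKO tumors, with cKO 3 lowest at 3.82 and 3.46, while the other members spread less over the 8 tumors.

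Mrc2, which carries collagen fragments into the cell, had 4.81, 4.58, 3.82 and 5.35 in the cKO tumors, against 5.12, 4.97, 5.38 and 5.01 in the WT tumors. In cKO tumors 3 of 4 values lay below every WT tumor, and the value of cKO 4 lay within the WT range. The means were 4.64 ± 0.63 in cKO and 5.12 ± 0.19 in WT (SD, n = 4 per group), a difference of −0.48 (SE 0.28) with an interval from −1.11 to 0.14 and a limma adjusted p of 0.618. In percent of the WT signal this is 71.7%, with a 95% interval from 46.5% to 110%. Without cKO 3 the difference was −0.21, and without cKO 4 it was −0.72. Arrays 1 to 4 gave −0.35 and arrays 5 to 8 gave −0.61, from 2 tumors of each group. Mrc2 was the 1 member with a mean below 5 over the 8 tumors.

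Ctsk encodes cathepsin K, the cathepsin that can cleave the triple helix of collagen and that is best known from osteoclasts and also made by fibroblasts. It had 5.49, 4.79, 3.46 and 6.06 in the cKO tumors, against 5.60, 5.49, 5.06 and 5.17 in the WT tumors. The cKO tumors thus held both the lowest and the highest of the 8 values, and the WT tumors lay between them. The means were 4.95 ± 1.12 in cKO and 5.33 ± 0.26 in WT (SD, n = 4 per group), a difference of −0.38 (SE 0.47, limma adjusted p 0.837). The difference changed sign without cKO 3, to 0.12, and was −0.75 without cKO 4. Arrays 1 to 4 gave −0.40 and arrays 5 to 8 gave −0.35. The SD of Ctsk over the 8 tumors was larger than that of 98.3% of all genes, and that of Mrc2 larger than that of 94.7%. Of 7 osteoclast markers 3 had a mean of at least 5 over the 8 tumors, and none passed the threshold. At an unadjusted p below 0.05 there were 2 lower, where 4.14% of all rows were, and the median difference of the 7 was −0.01. Among the dimmer markers, the osteoclast receptors Calcr and Oscar had means of 2.85 and 2.38 in cKO tumors. In WT tumors they had 2.94 and 2.39, and all of these lay below the array medians.

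Ctsk and Ctss lie beside each other on chromosome 3, on the same strand with their starts 27576 bases apart, and the RefSeq table of GRCm38.p6 places 1 predicted non-coding gene between them. Over the 8 tumors their signals had a Pearson r of −0.05 (exact permutation p = 0.872, adjusted p = 0.929 over 45 pairs of members) and a Spearman rho of 0.19 (exact permutation p = 0.665, adjusted p = 0.891), and r was 0.24 without cKO 3 and cKO 4. The sequences before both starts are shown because the genes are neighbours, and that of Ctsd is shown as the member with a repeated E-box. Capitals mark CACGTG (the E-box at the core of the element bound by the lysosomal regulator TFEB, the same on both strands) and GAGGAA or its reverse complement TTCCTC (the core bound by the myeloid factor PU.1). Each is the 250 bases before the RefSeq start in GRCm38.p6, 5′ to 3′ on the strand of the gene, at chr3:95498960-95499209 (plus) for Ctsk, chr3:95526536-95526785 (plus) for Ctss and chr7:142387828-142388077 (minus) for Ctsd.
Ctsk: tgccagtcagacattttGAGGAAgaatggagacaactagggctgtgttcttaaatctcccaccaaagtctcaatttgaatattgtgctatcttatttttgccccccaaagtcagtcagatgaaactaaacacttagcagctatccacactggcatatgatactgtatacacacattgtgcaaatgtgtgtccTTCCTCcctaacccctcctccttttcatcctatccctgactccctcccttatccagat
Ctss: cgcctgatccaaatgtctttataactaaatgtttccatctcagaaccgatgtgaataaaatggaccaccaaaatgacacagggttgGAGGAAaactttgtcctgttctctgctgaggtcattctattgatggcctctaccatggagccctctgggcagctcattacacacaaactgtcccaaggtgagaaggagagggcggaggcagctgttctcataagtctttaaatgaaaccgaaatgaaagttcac
Ctsd: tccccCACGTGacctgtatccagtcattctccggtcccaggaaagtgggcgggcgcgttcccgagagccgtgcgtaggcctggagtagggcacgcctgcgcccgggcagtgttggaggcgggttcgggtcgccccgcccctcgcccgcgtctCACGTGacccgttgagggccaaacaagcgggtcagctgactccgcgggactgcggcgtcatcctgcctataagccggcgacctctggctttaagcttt

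Upstream windows of this length were on hand for 7 of the 10 members, namely Ctsk, Ctss, Ctsc, Ctsd, Ctsl, Ctsz and Lgmn, the last with 2 starts. The E-box stood in windows of 3 of the 7 genes, Ctsd, Ctsl and Lgmn, and in 6.02% of all 32851 windows. In Ctsd it occurred at 98 and at 245 bases before the start. The PU.1 core stood in 3 of the 7 genes, Ctsk, Ctss and Ctsc, or 3 of the 8 windows, and in 23.3% of all windows. In Ctsk it occurred at 58 and 233 bases before the start, and in Ctss at 164. The AP-1 motif TGANTCA, searched on both strands, was in none of the windows of these genes and in 6.75% of all windows. The motifs do not overlap each other, and a match describes the letters only.

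Ctsl encodes cathepsin L, a widely made endopeptidase that cleaves many lysosomal substrates and activates other proteases. It had 9.04, 8.97, 8.64 and 8.45 in the cKO tumors, against 9.37, 8.91, 9.18 and 9.51 in the WT tumors. The groups overlapped through WT 2, and otherwise every cKO tumor was below every WT tumor. The difference was −0.47 (SE 0.17, interval −0.85 to −0.09), the smallest unadjusted p among the members (0.0205), with a limma adjusted p of 0.437 and an exact permutation p of 0.0857. In arrays 1 to 4 it was −0.14, against −0.80 in arrays 5 to 8. With single tumors left out it ran from −0.58 to −0.36.

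Ctss encodes cathepsin S, the protease of antigen-presenting cells that trims the invariant chain of MHC class II and keeps its activity at neutral pH. It had 9.93, 10.05, 10.11 and 10.10 in the cKO tumors, against 10.16, 9.92, 9.72 and 9.18 in the WT tumors. The cKO tumors lay close together, and the WT tumors spread on both sides of them. The difference was 0.30 (SE 0.18, limma adjusted p 0.638). In arrays 5 to 8 it was 0.65, in arrays 1 to 4 it was −0.05, and the difference was 0.12 without WT 4, which had the lowest value.

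Ctsb encodes cathepsin B, an endopeptidase and carboxypeptidase that is prominent in tumor-associated macrophages and carcinoma cells. It varied little, with 11.41, 11.26, 11.25 and 11.21 in the cKO tumors, against 11.37, 11.16, 11.07 and 11.25 in the WT tumors. The difference of 0.06 (SE 0.09, limma adjusted p 0.854) had a 95% interval from −0.14 to 0.27, or 90.8% to 121% of the WT signal. It was 0.02 without WT 3 and 0.12 without WT 1.

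The exopeptidases were next. Ctsz encodes cathepsin Z, a carboxypeptidase made largely by myeloid cells. It had 9.62, 9.71, 10.15 and 10.03 in the cKO tumors, against 9.67, 9.61, 9.56 and 9.49 in the WT tumors. Only cKO 1 lay within the WT range, and the 2 highest values were cKO 3 and cKO 4. The difference was 0.29 (SE 0.13, interval 0.01 to 0.58), with an unadjusted p of 0.0432, a limma adjusted p of 0.499 and an exact permutation p of 0.0571. Arrays 1 to 4 gave 0.02 and arrays 5 to 8 gave 0.56, and without cKO 3 the difference was 0.20.

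Ctsh, the aminopeptidase cathepsin H, had 9.93, 10.0005, 9.75 and 9.60 in the cKO tumors, against 9.85, 9.80, 10.02 and 10.21 in the WT tumors. The difference was −0.15 (SE 0.12, limma adjusted p 0.733), and its sign turned between arrays 1 to 4 (0.14) and arrays 5 to 8 (−0.44). It was −0.07 without WT 4. Ctsc, the dipeptidyl peptidase cathepsin C, which activates serine proteases of neutrophils and lymphocytes, had 9.29, 9.06, 9.20 and 9.33 in the cKO tumors, against 9.45, 9.45, 9.42 and 9.07 in the WT tumors. Of the WT values 3 lay above every cKO value and WT 4 stood apart from them. The difference was −0.12 (SE 0.11, limma adjusted p 0.764), −0.21 without WT 4 and −0.07 without cKO 2.

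Lgmn encodes legumain, an asparaginyl endopeptidase that processes several cathepsins to their mature chains. It had 8.78, 8.73, 8.48 and 8.95 in the cKO tumors, against 8.86, 8.70, 8.44 and 8.4999 in the WT tumors, a difference of 0.11 (SE 0.13, limma adjusted p 0.822) that was 0.19 without cKO 3 and 0.04 without cKO 4. Ctsd encodes cathepsin D, the aspartic protease among the members. It had 11.01, 11.31, 10.83 and 10.81 in the cKO tumors, against 11.22, 11.20, 11.02 and 10.94 in the WT tumors, a difference of −0.10 (SE 0.13, limma adjusted p 0.833) that was −0.05 without cKO 3, −0.04 without cKO 4 and −0.21 without cKO 2. Both genes overlapped widely between the groups. For Ctsd the 95% interval ran from 76.1% to 114% of the WT signal, and for Lgmn from 88.3% to 132%.

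**Figure D2:**
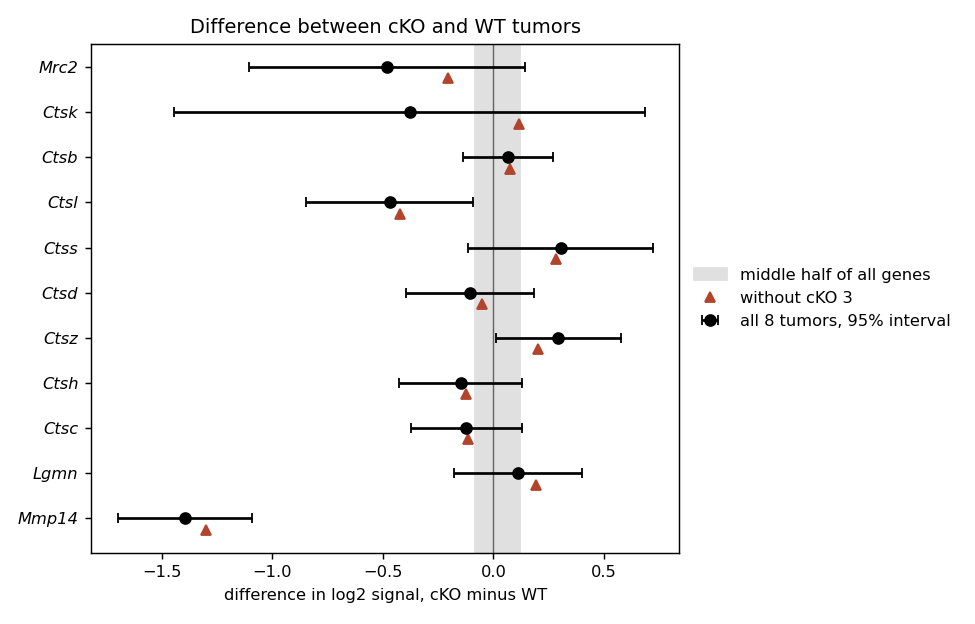
Difference in log2 signal, cKO minus WT, of the 10 members and Mmp14 (horizontal axis), with 95% limma intervals (black) and the value without cKO 3 (red triangles). The grey band holds the differences of the middle 50% of all genes. Ctsk lies at −0.38 with all tumors and at 0.12 without cKO 3, while Mmp14 lies at −1.40 and −1.30.

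The members were then set against markers of cell types, since whole tumors mix carcinoma cells with stroma and immune cells, and fewer cells of a type and less RNA per cell cannot be told apart. For a score, each marker was centred on its mean over the 8 tumors and the centred log2 signals were averaged in each tumor. The fibroblast score was 0.13, −0.66, −1.39 and 0.65 in the cKO tumors, against 0.36, 0.47, 0.42 and 0.02 in the WT tumors. Of 16 fibroblast markers 15 were lower in cKO tumors, none passed the threshold and 5 were lower at an unadjusted p below 0.05, as were 4.14% of all rows. Their median was −0.57, and −0.26 without cKO 3. The groups did not overlap for 2 of the 16, beside 5.42% of all rows. Col1a1 stood at −1.36 (−0.99 without cKO 3) and Dcn at −1.04 (−0.27 without cKO 3). The order of the cKO tumors was the same in this score, in Mrc2 and in Ctsk, with cKO 4 highest, then cKO 1, cKO 2 and cKO 3. That order was not particular to fibroblast markers. The endothelial score had it too, at 0.12, −0.41, −0.49 and 0.22 in cKO 1 to cKO 4. All 9 endothelial markers were lower in cKO tumors, where 43.3% of all genes were, and none passed the threshold. At an unadjusted p below 0.05 there was 1 lower, as were 4.14% of all rows. The groups did not overlap for 2 of the 9, where they did not for 5.42% of all rows. The tumor cKO 3 was also lowest in the pericyte score (−0.37) and the basal score (−0.59). Correlations of members with these other scores were not computed.

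Over the 8 tumors Mrc2 followed the fibroblast score with a Pearson r of 0.95 (exact permutation p = 0.00139, adjusted p = 0.0253 over 30 relations) and a Spearman rho of 0.76 (exact permutation p = 0.0368, adjusted p = 0.275). Ctsk did so with a Pearson r of 0.93 (exact permutation p = 0.00169, adjusted p = 0.0253) and a Spearman rho of 0.74 (exact permutation p = 0.0458, adjusted p = 0.275). Without cKO 2 and cKO 3, the 2 tumors farthest from the median score, r was 0.67 for Mrc2 and 0.61 for Ctsk, so the strength of both relations rests in part on those tumors. Without cKO 3 alone r was 0.84 for Mrc2 and 0.78 for Ctsk, and without cKO 2 alone it was 0.96 and 0.95. After centring on the group means r was 0.93 for Mrc2 and 0.96 for Ctsk. These were the 2 relations of 30 with an adjusted p below 0.05, and neither passed after adjustment when ranks were used. They did not pass without any 1 of the cKO tumors or without WT 4. Without cKO 1, cKO 2, cKO 4 or WT 4, however, r over the 7 tumors left still lay between 0.92 and 0.96 for both. Arrays 1 to 4 and 5 to 8 hold 4 tumors each, too few for a value of their own. The part of the fibroblast markers in the differences of Mrc2 and Ctsk was not tested.

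The macrophage score was 0.16, 0.18, 0.01 and 0.24 in the cKO tumors, against 0.09, −0.11, −0.17 and −0.40 in the WT tumors. Of 17 measured macrophage markers 13 were higher in cKO tumors and none passed the threshold. At an unadjusted p below 0.05 there were 10 higher, where 5.54% of all rows were, and the groups did not overlap for 6, where they did not for 5.42% of all rows. Their median was 0.39, with Adgre1 at 0.68, Lyz2 at 0.82 and Cd163 at −0.29 (−0.06 without cKO 2). Ctss had the highest r with this score among the members (Pearson r = 0.87, exact permutation p = 0.00714, adjusted p = 0.0536; Spearman rho = 0.64, exact permutation p = 0.0962, adjusted p = 0.361), and r was 0.33 without WT 3 and WT 4. Lgmn followed with a Pearson r of 0.75 (exact permutation p = 0.0318, adjusted p = 0.159) and a Spearman rho of 0.79 (exact permutation p = 0.0279, adjusted p = 0.275), and r was 0.60 without the same tumors. Ctsz had a Pearson r of 0.53 (exact permutation p = 0.170, adjusted p = 0.426) and a Spearman rho of 0.74 (exact permutation p = 0.0458, adjusted p = 0.275), and r was 0.16 without those tumors. After centring on the group means r was 0.85 for Ctss, 0.81 for Lgmn and 0.07 for Ctsz. The part of the macrophage markers in the difference of Ctss was not tested.

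The luminal epithelial score was −0.08, 0.09, −0.16 and −0.24 in the cKO tumors, against 0.16, −0.05, −0.11 and 0.39 in the WT tumors. Of 12 measured luminal markers 10 were lower in cKO tumors and none passed the threshold. At an unadjusted p below 0.05 there was 1 lower, where 4.14% of all rows were. Ctsl had the highest r with this score (Pearson r = 0.84, exact permutation p = 0.00709, adjusted p = 0.0536; Spearman rho = 0.79, exact permutation p = 0.0279, adjusted p = 0.275), and r was 0.62 without WT 1 and WT 4. Ctsh came next (Pearson r = 0.77, exact permutation p = 0.0252, adjusted p = 0.152; Spearman rho = 0.64, exact permutation p = 0.0962, adjusted p = 0.361), with r of 0.72 without those tumors. After centring on the group means r was 0.79 for Ctsl and 0.71 for Ctsh. Neither relation passed after adjustment. The part of the luminal markers in the difference of Ctsl was not tested.

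**Figure D3:**
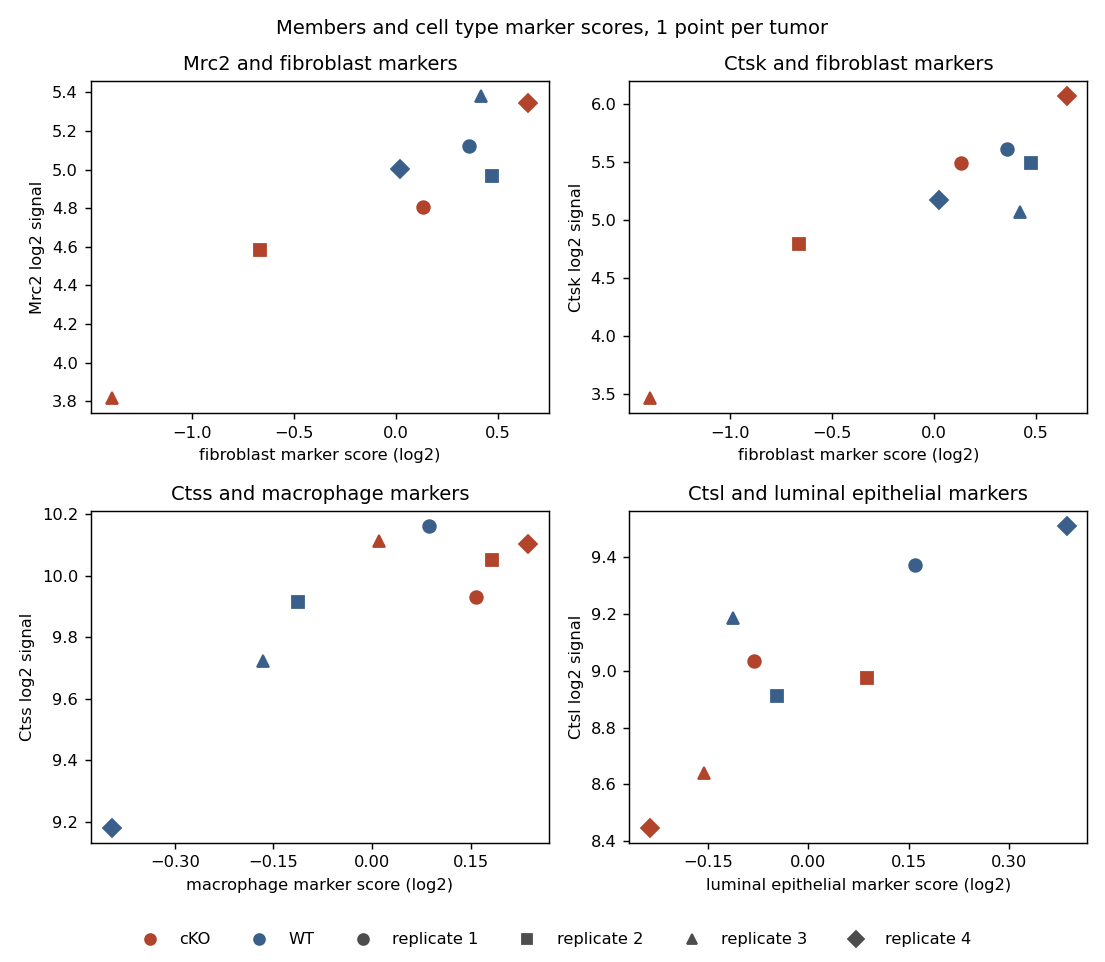
Log2 signal of Mrc2 and Ctsk against the fibroblast marker score, of Ctss against the macrophage marker score and of Ctsl against the luminal epithelial marker score. Each point is 1 tumor, red for cKO and blue for WT, with the symbol giving the replicate. The tumor cKO 3 is lowest on both axes of the fibroblast panels, at a score of −1.39, and WT 4 is lowest on both axes of the macrophage panel, at a score of −0.40.

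Among themselves the members formed 45 pairs, of which 28 had a positive r over the 8 tumors. None passed after adjustment over the 45 pairs, and 6 had an unadjusted exact permutation p below 0.05. Mrc2 and Ctsk had the highest r of all pairs (Pearson r = 0.87, exact permutation p = 0.0146, adjusted p = 0.167; Spearman rho = 0.55, exact permutation p = 0.171, adjusted p = 0.855), and r was 0.14 without cKO 2 and cKO 3. It was 0.51 without cKO 3 alone and 0.87 without cKO 2 alone, so that this relation rests more on cKO 3 than on cKO 2. Ctsl and Ctsh varied together (Pearson r = 0.84, exact permutation p = 0.00980, adjusted p = 0.167; Spearman rho = 0.83, exact permutation p = 0.0154, adjusted p = 0.327), with r of 0.49 without WT 4 and cKO 4. Ctsl and Ctsz varied in opposite directions (Pearson r = −0.84, exact permutation p = 0.00987, adjusted p = 0.167; Spearman rho = −0.74, exact permutation p = 0.0458, adjusted p = 0.412), with r of −0.73 without the same tumors. Ctsz also ran opposite to Ctsh (Pearson r = −0.78, exact permutation p = 0.0185, adjusted p = 0.167; Spearman rho = −0.76, exact permutation p = 0.0368, adjusted p = 0.412), and r was −0.63 without cKO 3 and cKO 4. So did Ctss (Pearson r = −0.78, exact permutation p = 0.0176, adjusted p = 0.167; Spearman rho = −0.69, exact permutation p = 0.0694, adjusted p = 0.520), with r of −0.30 without WT 3 and WT 4. The last of the 6 pairs was Ctsk with Lgmn (Pearson r = 0.68, exact permutation p = 0.0417, adjusted p = 0.313; Spearman rho = 0.81, exact permutation p = 0.0218, adjusted p = 0.327), with r of 0.50 without cKO 3 and cKO 4.

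**Figure D4:**
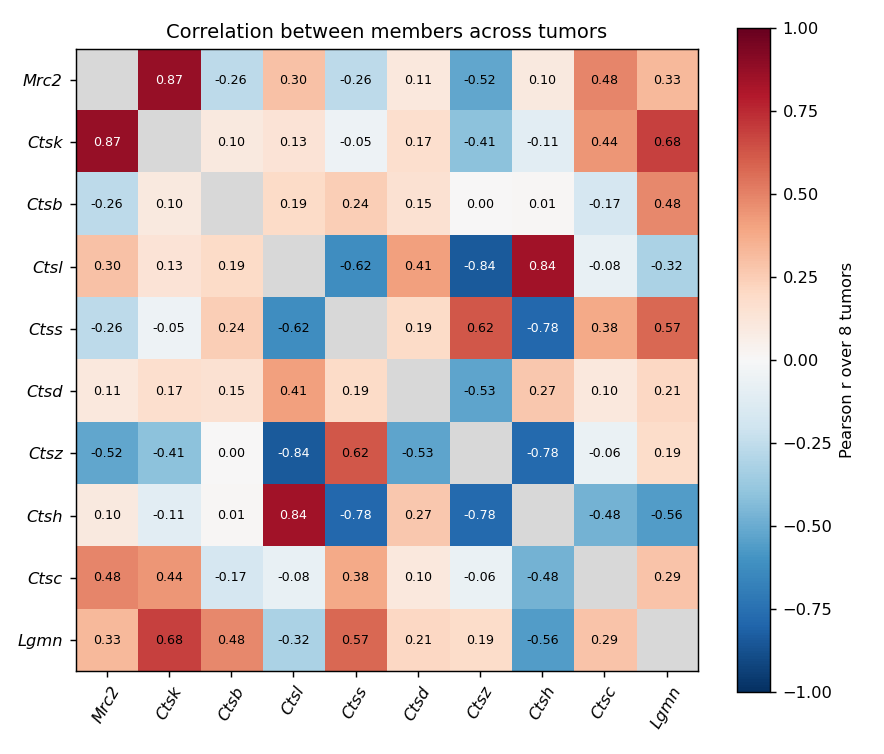
Pearson r between each pair of members over the 8 tumors (colour and printed value, red positive and blue negative, grey for the diagonal). The highest value is that of Mrc2 with Ctsk at 0.87, and the lowest that of Ctsl with Ctsz at −0.84.

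The genes most like each member were sought among 9931 other genes with a mean of at least 5, by Pearson r over the 8 tumors after each gene was centred on its group means. With so many genes and 8 tumors, high values are found for any gene, and they are given as a description. For Ctsk the 3 nearest were the fibrillar collagen genes Col5a2 and Col1a1, both at 0.99, and the sorting nexin Snx2 at 0.99. Their uncentred r was 0.86, 0.81 and 0.79. Col1a1 is also a marker in the fibroblast score, so its likeness to Ctsk is not separate from the relation of Ctsk with that score. For Mrc2 they were Mbnl1, a regulator of splicing, the transcription factor Ebf1, and the cell cycle phosphatase Cdc25c, each at 0.97. Without centring r was 0.96 for Mbnl1 and 0.98 for Ebf1 with Mrc2, and −0.00 for Cdc25c. For Ctss they were the endolysosomal nuclease Pld4 at 0.98, Iws1 at 0.97 and Hmgxb4 at 0.96. For Ctsl they were the membrane protease Tmprss13 at 0.99, the interferon gamma receptor Ifngr1 at 0.99 and Mrtfa at 0.98. The 3 nearest to Ctsz were Lrp4, Zfp110 and Zbtb20, each at 0.98, and uncentred at 0.82, 0.99 and 0.67. Among the nearest genes of the other members, Map1s stood at 0.97 with Ctsb, Hs2st1 at 0.99 with Ctsd, Ccdc57 at 0.98 with Ctsh, Elac2 at 0.98 with Ctsc and Mpdz at 0.98 with Lgmn. In the same order the uncentred r was 0.83, 0.86, 0.96, 0.93 and 0.73.

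Around the receptor, 16 of 17 listed genes of the uptake route and the mannose receptor family were measured. Of these 15 were lower in cKO tumors and 1 (Plau, at 0.02, and at −0.11 without WT 3) was higher, none past the threshold. At an unadjusted p below 0.05 there were 2, both lower, where 4.14% of all rows were lower. The list median was −0.19, and −0.12 without cKO 3. The smallest p belonged to the collagen-binding integrin chain Itga11, with 4.29, 4.31, 3.87 and 4.89 in the cKO tumors, against 5.01, 4.67, 4.996 and 4.96 in the WT tumors. Of the cKO values 3 lay below every WT value (difference −0.57, SE 0.19, limma adjusted p 0.415). The integrin chain Itga2, which also binds collagen, differed by −0.62 (SE 0.25, limma adjusted p 0.481) and Mfge8, a bridge for the uptake of dying cells, by −0.31 (SE 0.15, limma adjusted p 0.551), or −0.19 without cKO 3.

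Of the other cathepsins all 14 listed were measured, 6 higher and 8 lower in cKO tumors, with a median of −0.01 (−0.06 without WT 4 and 0.02 without WT 1). None passed the threshold, and 3 had an unadjusted p below 0.05, as did 9.68% of all rows. Of the 14, 3 had a mean of at least 5. Ctsf, a lysosomal cysteine cathepsin, differed by 0.49 (SE 0.19, limma adjusted p 0.461), and Ctse, an endosomal aspartic protease, by −0.51 (SE 0.19, limma adjusted p 0.463). Cts3, of a rodent placental cathepsin cluster, differed by 0.22 (0.14 without WT 1) at means of 2.72 in cKO and 2.50 in WT tumors, below the array medians.

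Of 15 listed cathepsin inhibitors 14 were measured, 5 higher and 9 lower, with a median of −0.11. None passed the threshold, and 2 had an unadjusted p below 0.05, as did 9.68% of all rows. The median was −0.02 without WT 4 or without cKO 4. Ctla2a, a mouse gene for an inhibitor related to the propeptide of cathepsins, had 6.26, 6.73, 4.48 and 6.31 in the cKO tumors, against 7.80, 6.78, 7.58 and 8.86 in the WT tumors. The groups did not overlap, with cKO 2 just below WT 2, which held for 2 of the 14 inhibitors and for 5.42% of all rows. The difference was −1.81 (SE 0.54, limma adjusted p 0.347) and −1.32 without cKO 3. Arrays 1 to 4 gave −0.80 and arrays 5 to 8 gave −2.82. Its close paralog Ctla2b differed by −0.40 (SE 0.39, limma adjusted p 0.785), or −0.02 without WT 4, and signals of such similar genes can share probes. Kng1 differed by 0.28 and Stfa1 by −0.34 (−0.20 without WT 4), both with means below the array medians. Cst3, the general secreted inhibitor cystatin C, was not among the 3 with the smallest p and differed by −0.19 (SE 0.26), or −0.44 without cKO 1, −0.09 without cKO 3 and −0.03 without WT 3.

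The genes of the machinery that makes the lysosome work had list medians close to 0, which does not show that each gene was level. Of 26 genes of sorting, membrane and acidification 12 were higher and 14 lower in cKO tumors, with a median of −0.02 and none past the threshold. Tcirg1, a subunit of the proton pump that is known from osteoclasts, had the smallest p of all listed lysosomal genes, with 6.84, 6.88, 6.81 and 6.71 in the cKO tumors, against 7.42, 7.05, 7.17 and 7.46 in the WT tumors. The groups did not overlap (difference −0.47, SE 0.11, limma adjusted p 0.212), which held for 1 of the 26 genes and for 5.42% of all rows. The difference in arrays 1 to 4 was −0.38, and in arrays 5 to 8 it was −0.56. The pump subunits Atp6v1c1 and Atp6v0d2 differed by 0.18 (SE 0.10; 0.11 without WT 4) and 0.51 (SE 0.33; 0.23 without cKO 4). Of 39 other lysosomal hydrolases 33 were measured, 17 higher and 16 lower, with a median of 0.04 (−0.03 without cKO 3 and −0.02 without WT 4). None passed the threshold, and 5 had an unadjusted p below 0.05, as did 9.68% of all rows. The hyaluronidase Hyal2 differed by 0.52 (SE 0.16, limma adjusted p 0.347), the alpha-galactosidase Gla by 0.29 (SE 0.09, limma adjusted p 0.364) and the sulfamidase Sgsh by −0.24 (SE 0.08, limma adjusted p 0.377). These 3, named for the smallest p, were the 3 of 33 whose groups did not overlap, beside 5.42% of all rows.

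**Figure D5:**
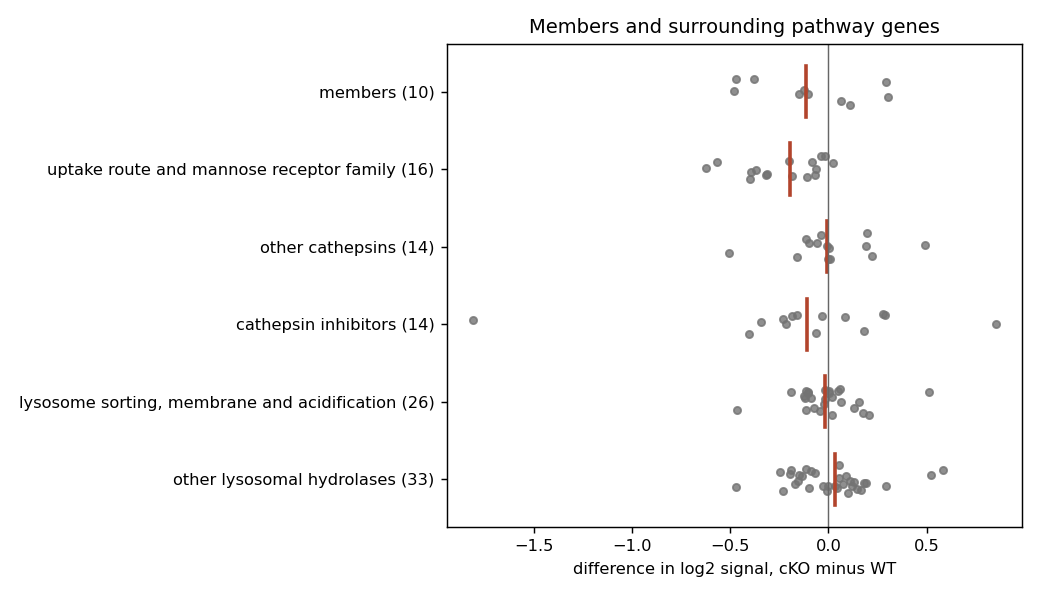
Difference in log2 signal, cKO minus WT, of the members and of the measured genes of 5 surrounding lists (1 grey point per gene, number of genes in parentheses), with the median of each list in red. The medians lie between −0.19 for the uptake route and 0.04 for the other hydrolases, and the lowest point is Ctla2a at −1.81.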

How the data were processed

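Total RNA of 8 tumors was hybridized to Affymetrix mouse arrays, 1 per tumor. The values the authors deposited are log2 signals. Per the submitters' processing notes, RMA (background correction, quantile normalization and probe summary) and limma were used, in versions not given in the sources here. Of 41345 rows, 23521 had 1 gene symbol, 1814 several, and 16010 are unnamed here; for 23328 the symbol is that of RefSeq's GRCm38.p6 table, matched on gene identifier. A gene's brightest row stood for it.

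The main test, limma 3.58.1 under R 4.3.3, compared cKO minus WT in all 23521 rows (lmFit and eBayes, two-sided), adjusted by Benjamini-Hochberg over all rows. No low-signal filter was applied; 9 of 10 members had a mean of at least 5. Exact tests permuted the 8 tumors, for which the smallest p is 0.0286. Correlations used all pairings, with 1 adjustment per family. The fit was tested on simulated data. The members and lists were chosen with earlier results of these data known. Named genes are the members, Mmp14, the 3 smallest p per list and the 3 nearest genes of each member; others named were chosen after their values were seen. Promoter windows are RefSeq's. Deviations of tumors with the same replicate number correlated between −0.24 and 0.29, so the numbers were not taken to pair tumors. Array numbers 1 to 4 and 5 to 8 come from the labels, which call them no batch.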

Additional observations from a re-analysis of the deposited data

Results flagged for a closer look

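In 90 groups of 4 values, 7 had 1 tumor far from the other 3, where chance gives about 1 in 20. Among the members only Ctsc was so marked, with WT 4 at 9.07 and the other WT tumors between 9.42 and 9.45. The score of the uptake route list was −0.37 in cKO 3, against −0.04 to −0.02 in the other cKO tumors. The score of the other cathepsins was −0.10 in WT 4, against 0.02 to 0.03 in the other WT tumors. Itga11 had 4.67 in WT 2, against 4.96 to 5.01 in the other WT tumors. Ctse had 5.22 in cKO 2, against 5.78 to 5.90 in the other cKO tumors. Atp6v1c1 had 8.53 in cKO 1, against 8.34 to 8.36 in the other cKO tumors. The mast cell score was 0.39 in cKO 4, against −0.0678 to −0.00493 in the other cKO tumors.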

How the results depend on the processing

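No member passed the threshold under any alternative run: another quantile normalization, a shift of the arrays to 1 median, leaving out rows with a mean below 5 (which drops Mrc2), all rows tested, another variance model, array weights, arrays 1 to 4 and 5 to 8 as a block, the replicate number as a block, the mean of a gene's rows, and each tumor left out. The smallest adjusted p of any member in limma's fits was 0.242 (Ctsl, without WT 2). No gene of the surrounding lists passed either. With single tumors left out Ctsk ran from −0.75 to 0.12, the sign turning without cKO 3, and the median of the members from −0.14 to 0.01. The other members kept their sign. Members at an unadjusted p below 0.05 numbered 0 to 2 with tumors left out, and 1 with array weights or the replicate block. Between 0 and 2 members then separated the groups, which fewer tumors make easier. Mmp14 ran from −1.48 to −1.30 and passed only without cKO 1 or cKO 3. As a block, the 2 array sets gave Mmp14 −1.40 with a limma adjusted p of 0.0708, and the replicate block −1.40 with 0.353 and no row called, the cause of which was not tested. Member and score relations past adjustment numbered 1 with centred values and 0 to 3 with tumors left out, being 0 without any 1 of the cKO tumors or WT 4 and 3 without WT 3. Member pairs past adjustment numbered 0 to 2, the 2 arising without WT 1.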
